A study of Mus musculus with 6 samples.

Results

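Snhg11 and 9 other long noncoding RNAs were followed in hepatocytes of control mice and of mice with Xbp1 deleted in hepatocytes. The other RNAs were Snhg1, Snhg12, Gas5, Malat1, Neat1, Meg3, H19, Rian and Mirg. The RNAs were taken by gene symbol and made up 10 of the 54532 gene rows in the deposited count table. The set was put together with earlier results of the same libraries known, so the values of the 10 genes are a description, with no p-value, and counts of members past a threshold support nothing. Hepatocytes were isolated from C57BL/6 mice aged 32 to 34 weeks that had been on a high-fat diet (HFD) for 26 weeks. The 3 XCON libraries came from mice with the genotype Xbp1FL/FL, and the 3 XCKO libraries from Xbp1ΔHep mice, in which the same gene is removed from hepatocytes. All mice in both groups had the diet, so no library shows the genes on a normal diet. No label ties a library to a single mouse, so errors and p-values describe how far these libraries differ, which may be partly technical.

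Long noncoding RNAs act as RNA rather than through a protein. Several of those described here are host genes, whose introns are cut out and trimmed into small nucleolar RNAs (snoRNAs), the guides for chemical modification of ribosomal RNA. The spliced remainder of such a host transcript is often destroyed by nonsense-mediated decay, the pathway that removes RNAs with an early stop codon. Malat1 gathers in nuclear speckles, where splicing factors are stored, and Neat1 is the scaffold of paraspeckles, another kind of nuclear body. Meg3, Rian and Mirg lie one after another in the imprinted Dlk1-Dio3 region and are read from the maternal chromosome, as is H19, a fetal liver RNA that is largely silenced after birth. The protein made from Xbp1 switches on genes when unfolded proteins build up in the endoplasmic reticulum.

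Total counts lay between 23919355 and 27240079 per library. Xbp1 had 4453, 8021 and 9434 reads in the XCON libraries against 1458, 1013 and 1558 in the XCKO libraries. The log2 fold change was -2.24 ± 0.29 (SE, n = 3 per group; adjusted p = 0.0084 by edgeR's quasi-likelihood test, adjusted after Benjamini and Hochberg). The source of the Xbp1 reads left in XCKO was not tested. Across the 14873 genes tested, 1378 passed an adjusted p of 0.05, 775 of them higher and 603 lower in XCKO, which is 9.27% of genes in all, 5.21% for higher and 4.05% for lower. With scaling to total counts the split was 326 higher and 2032 lower. Mitochondrial transcripts took 22.8% of the counts in XCON 1 and 8.99% to 13.1% in the other 5 libraries. Albumin was abundant in every library, and the summed level of 10 hepatocyte markers ran from 69390 to 90018 CPM (counts per 1000000 of the TMM-scaled library size) in XCON and from 94229 to 128064 in XCKO.

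The 5' ends of 4 snoRNA hosts are shown because host genes of this kind are known for a terminal oligopyrimidine tract, a run of C and T at the first transcribed bases. Each line gives 30 bases before and 30 bases from the RefSeq start on GRCm38.p6, on the transcribed strand. The longest run of C and T that reaches within 5 bases of the start, on either side, is in capitals.
Snhg1 (chr19:8723457-8723516, + strand): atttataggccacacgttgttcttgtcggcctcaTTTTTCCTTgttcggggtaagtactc
Snhg12 (chr4:132308648-132308707, + strand): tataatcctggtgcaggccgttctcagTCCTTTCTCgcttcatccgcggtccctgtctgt
Gas5 (chr1:161035136-161035195, + strand): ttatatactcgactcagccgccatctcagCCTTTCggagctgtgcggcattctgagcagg
Snhg11 (chr2:158375683-158375742, + strand): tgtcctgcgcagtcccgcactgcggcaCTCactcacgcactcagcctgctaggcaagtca

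The run was 9 bases long in Snhg1 and Snhg12, a length reached in 6.65% of the 32851 RefSeq windows. In Gas5 it was 6 bases, as long or longer in 20.2% of windows, and at a second listed Gas5 start it was 3 bases. Snhg11 had a run of 3 bases and an A as its first base, and 65.4% of windows had a run at least as long. The Snhg11 run was thus as long as that at the second Gas5 start, and no use of any start was measured here. The marked run began a few bases after the start in Snhg1, spanned the printed start in Snhg12 and Gas5, and lay wholly before it in Snhg11. A marked run is therefore not by itself a tract at the first transcribed bases.

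Snhg11 had the lowest XCKO level relative to XCON among the 8 members that passed the filter on low counts. The gene lies at chr2:158375638-158386145 on the plus strand of mm10 (ENSMUSG00000044349), is 8521 bases long by the deposited gene length, and is listed with a protein-coding biotype although it is known as a snoRNA host. XCON 1, 2 and 3 held 450, 228 and 171 reads of it, while XCKO 1, 2 and 3 held 22, 37 and 4. On the CPM scale this was 17.3, 8.36 and 5.78 in XCON and 0.891, 1.44 and 0.173 in XCKO. The groups did not overlap, and the lowest XCON library lay above the highest XCKO library. The XCON mean was 10.5 ± 6.1 CPM and the XCKO mean 0.833 ± 0.63 CPM (SD, n = 3 each), a log2 fold change of -3.63 ± 0.68 (SE), or 12.4-fold lower.

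The spread inside each group was wide. XCON libraries differed among themselves by 3-fold and XCKO libraries by 8.3-fold, with XCON 1 highest and XCKO 3 lowest of all 6. The XCKO 3 value rested on 4 reads, close to the 3 reads taken as the floor, which correspond to 0.13 CPM in that library. Without any 1 library the log2 fold change ran from -4.23 to -3.06. Snhg11 was the 1 member of 8 tested that passed an adjusted p of 0.05, and it was lower, beside 9.27% of all genes tested past in either direction, 4.05% lower and 5.21% higher. Since the member was chosen from this contrast, nothing is read from that count. Snhg11 no longer passed without XCON 1 (log2 fold change -3.06), without XCKO 1 (-3.66) or when no filter on low counts was used (-3.60). Other members passed in some alternatives, Neat1 in 3 settings and in the fit without XCON 2 (-1.35), Meg3 in 4 settings, H19 in 1 setting and Malat1 in the fit without XCKO 2 (-1.22).

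RNAs of pancreatic islet cells were counted in the XCON library with the most Snhg11. Ins2, an insulin gene, had 40 reads in XCON 1 and 0 in the other 5 libraries, and Ins1, the other insulin gene, had 6 reads in XCON 1 and 0 elsewhere. Gcg, the glucagon gene, had 9 reads in XCON 1, 1 in XCON 2 and 3 in XCKO 3, and Chgb, a secretory granule protein, had 3 reads in XCON 1 alone. The part of these transcripts in the Snhg11 level of XCON 1 was not tested.

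Snhg11 is known from brain, so 15 neuronal and neuroendocrine markers were looked up. Snap25, Chga and Stmn2 had 0 reads in all 6 libraries, and 3 of the 15 could be tested. Their summed level was 23.7, 13.5 and 25 CPM in XCON 1, 2 and 3 and 12.8, 9.39 and 7.31 CPM in XCKO 1, 2 and 3, with no overlap. Srrm4, a splicing factor of neurons and endocrine cells, made most of the XCON sum at 19.6, 8.5 and 20.7 CPM and was lower in XCKO at 5.34, 3.76 and 1.73 CPM. Syt1, a calcium sensor of synaptic vesicles, was at 2.46, 3.81 and 3.28 CPM in XCON and at 6.27, 5.01 and 4.24 CPM in XCKO, with all XCKO libraries above all XCON libraries. Srrm4 was the 1 marker of the 3 tested that passed, beside 9.27% of all genes tested in either direction. The part of Srrm4 in the Snhg11 result was not tested. In bulk RNA, fewer cells of a type and less RNA per cell cannot be told apart, which holds for every gene described here.

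**Figure D1:**
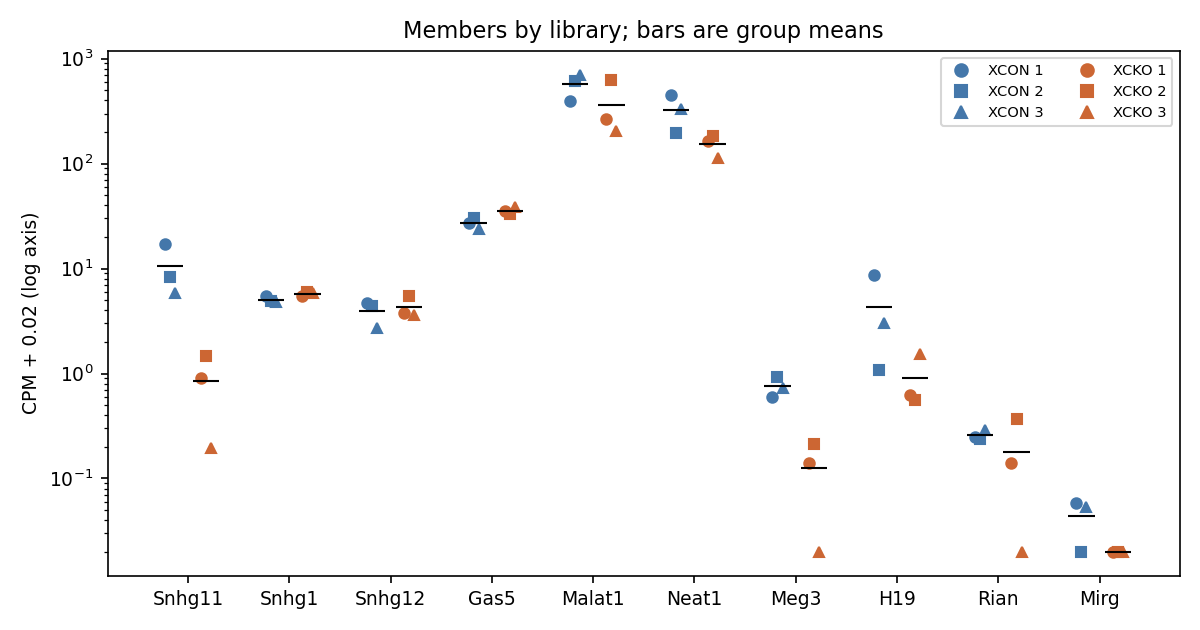
Level of each of the 10 long noncoding RNAs by library, as CPM plus 0.02 on a log axis, with 1 point per library (XCON blue, XCKO orange, replicate by marker shape) and a bar at each group mean. Snhg11 lies between 5.78 and 17.3 CPM in XCON and between 0.173 and 1.44 CPM in XCKO, while the Malat1 points of the groups are mixed.

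The promoter window of Snhg11 is shown because the motifs bound by XBP1 and related factors are short and can be searched for by letters. The 300 bases run from 250 before to 50 after the RefSeq start on GRCm38.p6 (chr2:158375463-158375762, + strand), with the 1 match to CCACG in capitals.
Snhg11 promoter: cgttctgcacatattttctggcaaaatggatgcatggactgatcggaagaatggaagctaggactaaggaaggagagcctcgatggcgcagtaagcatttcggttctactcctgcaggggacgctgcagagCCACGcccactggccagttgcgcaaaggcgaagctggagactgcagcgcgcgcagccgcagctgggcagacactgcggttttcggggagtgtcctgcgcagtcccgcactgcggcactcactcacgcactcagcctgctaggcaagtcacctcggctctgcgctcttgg

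CCACG, which is also the end of the endoplasmic reticulum stress element (ERSE), lay 119 bases upstream of the Snhg11 start, and 32.8% of all 32851 windows hold it on one strand or the other. The full ERSE (CCAAT, any 9 bases, then CCACG, in 0.119% of windows), ERSE-II (ATTGG, any 1 base, then CCACG, in 0.0365%) and the unfolded protein response element (TGACGTGG, 0.676%) had no match on either strand in the 10 windows of the 8 members with one. CCACG was also found 156 bases upstream of a Gas5 start and 51 bases upstream of the Snhg1 start, both on the minus strand. ACGTG, found in 19.6% of windows, lay 43 bases upstream of the Malat1 start and 18 bases upstream of the Snhg1 start. These are matches of letters, and no binding was measured.

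The snoRNA hosts Gas5, Snhg1 and Snhg12 had XCKO levels near or above those of XCON. Rian, which also hosts snoRNAs, did not pass the filter and is described below with the imprinted RNAs. Gas5 (ENSMUSG00000053332, chr1:161034422-161038539, + strand), host of many box C/D snoRNAs and a transcript that builds up when growth is arrested, had 27.3, 30.5 and 24.0 CPM in XCON 1, 2 and 3 and 35.2, 33.3 and 38.2 CPM in XCKO 1, 2 and 3. All XCKO libraries lay above all XCON libraries, and the spread was narrow, with means of 27.3 ± 3.2 and 35.5 ± 2.5 CPM (SD, n = 3 each). The log2 fold change was 0.38 ± 0.14 (SE), or 1.30-fold higher, and 0.11 with scaling to total counts. That scaling moved the median over all genes from -0.05 to -0.31.

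Snhg1 (ENSMUSG00000108414, chr19:8723475-8726443, + strand), host of another group of C/D snoRNAs, was at 5.46, 4.84 and 4.77 CPM in XCON and 5.42, 6.02 and 5.79 CPM in XCKO. XCKO 1 lay below XCON 1, so the groups overlapped. The log2 fold change was 0.19 ± 0.20 (SE) and turned to -0.07 with total-count scaling. Snhg12 (ENSMUSG00000086290, chr4:132308623-132311024, + strand) had 4.69, 4.4 and 2.67 CPM in XCON and 3.76, 5.4 and 3.63 CPM in XCKO, also with overlap. Its log2 fold change of 0.12 ± 0.30 turned to -0.13 with total-count scaling, to -0.03 without XCKO 2 and to -0.09 without XCON 3, so no direction is given.

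Reads on the small RNA rows inside the members were nearly absent, and how well these libraries recover such short RNAs was not tested. The annotation lists 59 small RNA rows inside the members on the same strand, 38 of them snoRNAs and 21 miRNAs, and 1 had any read. That row was Gm25129 inside Snhg11, with 4 reads in XCON 2. The host values are counts on the rows of the longer transcripts.

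Malat1 and Neat1, the RNAs of nuclear speckles and paraspeckles, held 86.6% to 96.2% of the reads of all 10 members. Malat1 (ENSMUSG00000092341, chr19:5795690-5802672, - strand) had 395, 615 and 705 CPM in XCON 1, 2 and 3 and 269, 622 and 205 CPM in XCKO 1, 2 and 3. XCKO 2 lay above XCON 1 and XCON 2, so the groups overlapped, while XCKO 1 and XCKO 3 lay below every XCON library. The means were 572 ± 160 and 365 ± 225 CPM (SD, n = 3 each), a log2 fold change of -0.65 ± 0.43 (SE). Without XCKO 2 it was -1.22 and without XCKO 3 it was -0.34.

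Neat1 (ENSMUSG00000092274, chr19:5824708-5845478, - strand) was at 450, 196 and 334 CPM in XCON and 166, 182 and 113 CPM in XCKO. The groups did not overlap, but XCON 2 at 196 CPM and XCKO 2 at 182 CPM were close. The means were 326 ± 127 and 154 ± 36 CPM (SD, n = 3 each), a log2 fold change of -1.09 ± 0.31 (SE), or 2.13-fold lower. It was -0.78 without XCON 1, the library with the highest Neat1 and the highest mitochondrial share, whose part was not tested. Reads of Neat1 per read of Malat1 ran at 1.14, 0.318 and 0.473 over the XCON libraries and at 0.615, 0.292 and 0.553 over the XCKO libraries, so the pair did not keep a fixed ratio within either group.

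The imprinted RNAs were scarce. H19 (ENSMUSG00000000031, chr7:142575529-142578143, - strand) had 8.7, 1.06 and 3.04 CPM in XCON 1, 2 and 3 and 0.607, 0.543 and 1.51 CPM in XCKO 1, 2 and 3. XCON 2 lay below XCKO 3, and the XCON libraries differed among themselves by 8.18-fold. The log2 fold change was -2.26 ± 0.79 (SE) and fell in size to -1.21 without XCON 1. Igf2, the paternally read partner of H19, had 1 read in XCON 1 and 0 in the other 5 libraries.

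Meg3 (ENSMUSG00000021268, chr12:109541001-109571726, + strand) had 15, 25 and 21 reads in XCON and 3, 5 and 0 reads in XCKO. Every XCON library was above every XCKO library, and all XCKO values were within a few reads of 0. Meg3 passed the filter on low counts through the XCON libraries alone, so a lower XCKO level was built into its being tested, and its log2 fold change of -2.72 ± 0.76 (SE) depends on how the 0 is treated. Rian (ENSMUSG00000097451, chr12:109603940-109661716, + strand), a host of many C/D snoRNAs in brain, had 6, 6 and 8 reads in XCON and 3, 9 and 0 in XCKO, with overlap. Mirg (ENSMUSG00000097391, chr12:109729764-109749460, + strand), a miRNA host further along the same cluster, had 1, 0 and 1 reads in XCON and 0 in every XCKO library. Neither Rian nor Mirg passed the filter. Of the coding genes of this region, Dlk1 had 4, 8 and 0 reads in XCON and 0 in XCKO, Dio3 had 2, 1 and 9 in XCON and 0, 2 and 4 in XCKO, and Rtl1 had 0 in all 6.

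In all, 4 of the 8 members tested had groups that did not overlap, Gas5 higher and Snhg11, Neat1 and Meg3 lower, beside 35.7% of all genes tested, 17.6% higher and 18.1% lower. The members were chosen from this contrast, and nothing is read from that count. The authors' deposited table lists log2 fold changes of -3.61 for Snhg11, -1.06 for Neat1, -0.62 for Malat1 and 0.42 for Gas5.

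Levels between genes were compared per length, in the authors' deposited FPKM. In XCON the mean FPKM was 79.9 for Malat1, 15.3 for Neat1 and 7.06 for Gas5. H19 at 1.69, Snhg1 at 1.65, Snhg12 at 1.59 and Snhg11 at 1.19 followed, and the library ranges of each neighbouring pair among these 4 overlapped. Meg3 at 0.0395, Rian at 0.0129 and Mirg at 0.00324 came last. In XCKO the mean FPKM was 51.9 for Malat1, 9.45 for Gas5 and 7.36 for Neat1, so Gas5 and Neat1 changed places. Snhg11, at 0.0968 in XCKO, was the seventh member in both groups. The rows with a long noncoding biotype, with the Snhg11 row added although it is not listed under that biotype, numbered 9678. Among them Malat1 and Neat1 took places 1 and 2 by mean CPM, Gas5 place 23 and Snhg11 place 99.

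Other host genes and long noncoding RNAs, from lists chosen with earlier results known, give the surroundings. Among 13 tested of 17 other snoRNA hosts, 1 was higher, 1 was lower and 11 did not pass, or 15.4% past beside 9.27% of all genes tested. Their median log2 fold change was 0.32 beside -0.05 over all genes. With total-count scaling 0 were higher and 1 lower, with a median of 0.06 beside -0.31. Snhg8 rose from 4.51 ± 0.53 to 8.12 ± 1.1 CPM (SD, n = 3 each; adjusted p = 0.0406, edgeR's quasi-likelihood test), a call that held in 1 of 6 fits without a library, the one without XCKO 2, with adjusted p up to 0.10. Snhg18 fell from 2.61 ± 0.092 to 0.691 ± 0.082 CPM (adjusted p = 0.0163, edgeR's quasi-likelihood test), and without XCKO 3 the adjusted p was 0.055. Among 22 tested of 38 other named long noncoding RNAs, 0 passed by edgeR or limma-voom, beside 9.27% of all genes tested by edgeR. An unadjusted edgeR p under 0.05 was reached by 5, and 3 passed by DESeq2. The median was -0.45, with 19 values below 0. The share of all genes under that unadjusted p is not given here, so nothing is read from the count of 5. The smallest p among these other named RNAs was that of Rn7sk, the RNA that holds back transcription elongation. Its log2 fold change was 1.94 ± 0.52 (SE; adjusted p = 0.051, edgeR's quasi-likelihood test). Rn7sk had 11, 5 and 9 reads in XCON and 19, 43 and 25 in XCKO. XCON 2 and XCON 3 were under the filter's 0.378 CPM, so Rn7sk passed the filter through its higher XCKO level. The tested rows with a long noncoding biotype, with the Snhg11 row added, numbered 927, a group added after the data were seen. Of these, 11 were higher and 17 lower, Snhg11 among the lower, which is 3.02% past beside 9.27% of all genes tested. Their median was -0.22.

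The proteins that work with these RNAs mostly did not pass, beside 9.27% of all genes tested that did. The share of all genes with an unadjusted edgeR p under 0.05 is not given here, so nothing is read from counts of such p. Of 18 paraspeckle proteins 0 passed by edgeR, DESeq2 or limma-voom, 6 had an unadjusted edgeR p under 0.05 and the median was -0.14. Of 20 nuclear speckle proteins 0 passed by edgeR or limma-voom, 1 passed by DESeq2, 4 had an unadjusted edgeR p under 0.05 and the median was -0.25. Of 15 nonsense-mediated decay factors 0 passed by edgeR or limma-voom, 1 passed by DESeq2, 3 had an unadjusted edgeR p under 0.05 and the median was 0.05. Of 12 proteins that bind snoRNAs 2 were higher and 0 lower, or 16.7% past beside 9.27% of all genes tested, with a median of 0.19. With total-count scaling 1 was higher and 1 lower, with a median of -0.08. The smallest p belonged to Cpsf7 among the paraspeckle proteins (log2 fold change -0.41) and to Srrm1 among the nuclear speckle proteins (-0.40), with adjusted p of 0.089 and 0.0944 by edgeR's quasi-likelihood test.

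The higher snoRNA-binding proteins were Nhp2 and Nop10, both components of the H/ACA particle, which guides pseudouridylation. The other core proteins of that particle did not pass, with log2 fold changes of 0.32 for Dkc1 and 0.30 for Gar1, and neither did its assembly factor Naf1 at -0.56. Nhp2 rose from 10.8 ± 0.80 to 17.7 ± 1.4 CPM (SD, n = 3 each; adjusted p = 0.0237, edgeR's quasi-likelihood test) and Nop10 from 17.8 ± 1.5 to 30.4 ± 3.9 CPM (adjusted p = 0.0205). The Nhp2 call was lost with total-count scaling (adjusted p = 0.0797, edgeR's quasi-likelihood test) and without XCKO 1, XCKO 3, XCON 1 or XCON 2, with adjusted p up to 0.070, and the Nop10 call without XCKO 3, XCON 2 or XCON 3, up to 0.062.

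Among 16 tested of 27 imprinted coding genes, 2 were higher, 1 was lower and 13 did not pass, or 18.8% past beside 9.27% of all genes tested. The median was -0.35, and with total-count scaling 1 was higher and 4 were lower. Gnas, the stimulatory G protein subunit, rose from 10.7 ± 1.6 to 23.8 ± 2.3 CPM (SD, n = 3 each; adjusted p = 0.00976, edgeR's quasi-likelihood test) and passed without any 1 library. Slc22a18, a membrane transporter on chromosome 7, rose from 119 ± 19 to 184 ± 5.0 CPM (adjusted p = 0.0484, edgeR's quasi-likelihood test), a call that held in 1 of 6 fits without a library, the one without XCON 2, with adjusted p up to 0.13. Peg10, a retrotransposon-derived gene, fell from 2.24 ± 0.42 to 0.675 ± 0.25 CPM (adjusted p = 0.0343, edgeR's quasi-likelihood test), a call lost without any 1 library, up to 0.091.

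**Figure D2:**
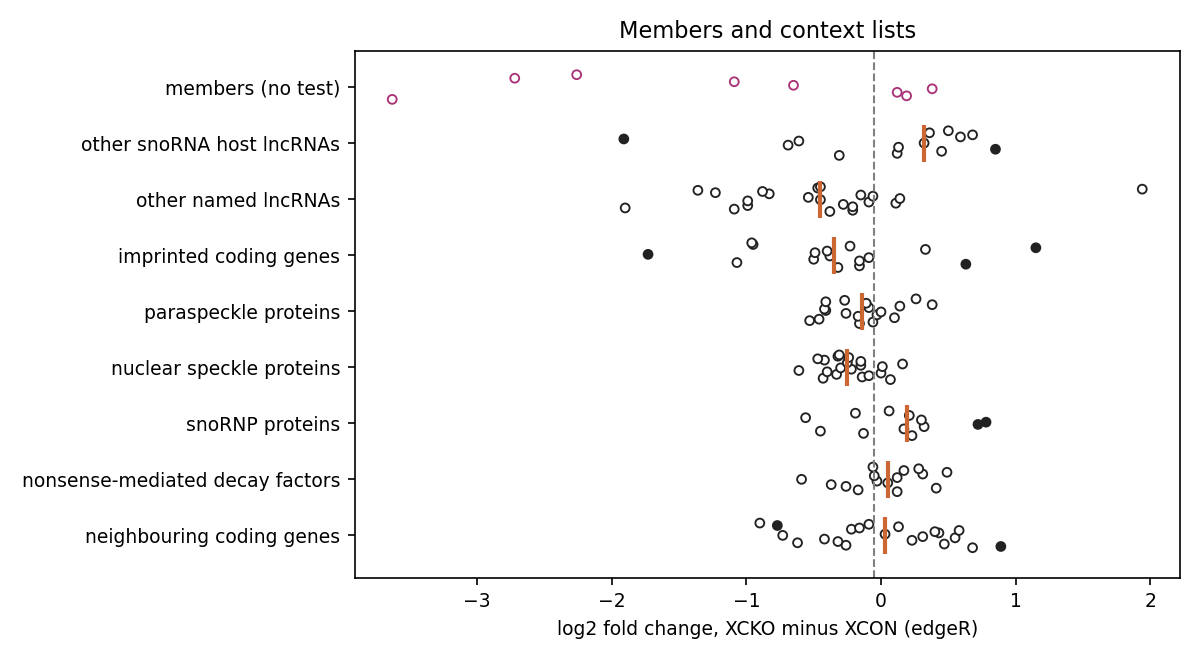
Log2 fold change of XCKO against XCON for the 8 members that could be fitted and for the tested genes of each list, with 1 point per gene. Filled points are list genes that passed an adjusted p of 0.05, and all members are drawn open whether or not they passed. Orange bars are list medians, and the dashed line is the median of all genes at -0.05. Snhg11 at -3.63 lies to the left of the other snoRNA hosts, which run from -1.91 to 0.85.

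Genes beside the members on the chromosome were compared within 50 kb. Of 21 tested neighbouring coding genes, 1 was higher and 1 lower, or 9.52% past beside 9.27% of all genes tested. Their median was 0.03. An unadjusted edgeR p under 0.05 was reached by 12 of them, and the share of all genes under it is not given here. By DESeq2 6 neighbours passed, beside 2653 of all 14873 genes. With total-count scaling 1 was higher and 3 were lower, with a median of -0.24. Snhg17, a noncoding snoRNA host 14.1 kb from Snhg11 on the other strand, had 19.2, 24.2 and 10.9 CPM in XCON and 10.6, 16.5 and 8.47 CPM in XCKO, with overlap and a log2 fold change of -0.61 ± 0.34 (SE; adjusted p = 0.266, edgeR's quasi-likelihood test). Reads of Snhg11 per read of Snhg17 were 0.9, 0.345 and 0.529 in XCON and 0.0843, 0.0873 and 0.0204 in XCKO. Snhg11 was thus lower in XCKO also relative to this neighbour, in every library.

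Lbp, the lipopolysaccharide-binding protein secreted by liver, lies 42.8 kb from Snhg11 and rose from 199 ± 19 to 369 ± 41 CPM (SD, n = 3 each; adjusted p = 0.0205, edgeR's quasi-likelihood test). The call was lost without XCKO 1, XCKO 3, XCON 1 or XCON 2, with adjusted p up to 0.059. Gmeb1, near Snhg12, fell from 8.11 ± 0.54 to 4.76 ± 0.74 CPM (adjusted p = 0.0499, edgeR's quasi-likelihood test), and the call was lost without any 1 library, up to 0.13. Zbtb37 overlaps Gas5 by 428 bases on the other strand, with a log2 fold change of -0.73 ± 0.29 (SE). No source used here says if counting was by strand, so the Gas5 and Zbtb37 values are uncertain where the genes overlap.

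**Figure D3:**
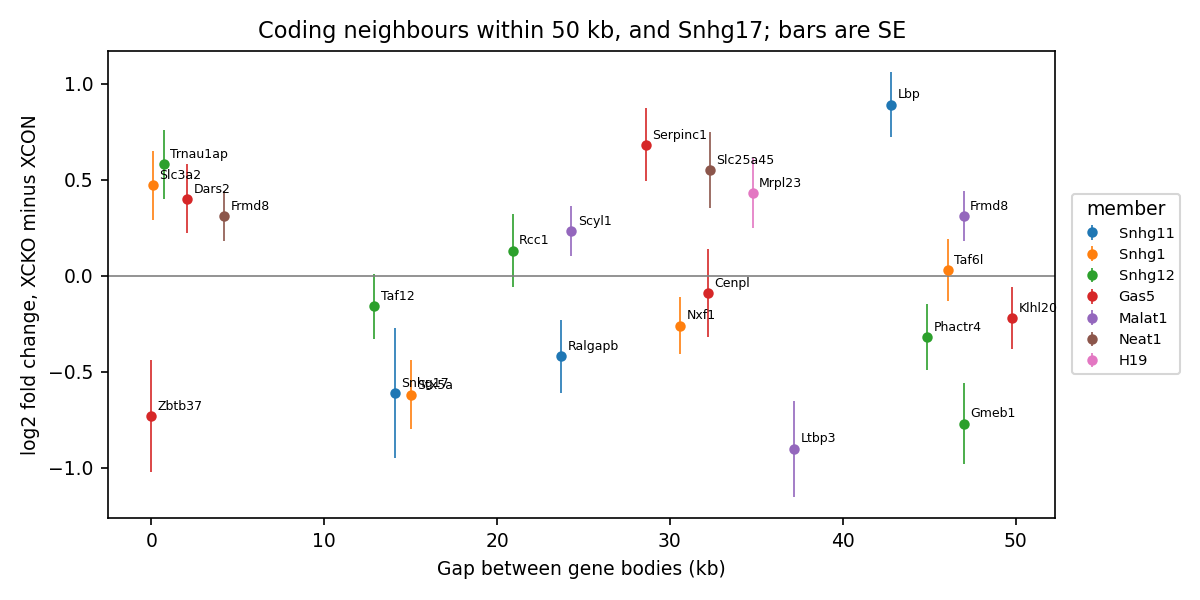
Log2 fold change (points) and SE (bars) of tested coding genes within 50 kb of a member, and of the noncoding Snhg17, against the gap between the gene bodies in kb, coloured by member. Lbp near Snhg11 lies at 0.89 and Gmeb1 near Snhg12 at -0.77, and the values of neighbours fall on both sides of 0.

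The tested genes whose levels over the 6 libraries were most like those of 3 members were found by the root mean square difference of log2 CPM after centring each gene on its own mean. For Snhg11 these were Inava at 0.61, Trim6 at 0.81, Nrg1 at 0.83, Cdh3 at 0.86 and Glis3 at 0.89, beside a median of 2.07 over all genes. Inava (4, 2 and 0 reads in XCKO), Trim6 (2, 5 and 0) and Cdh3 (2, 1 and 0) were under the filter's 0.378 CPM in every XCKO library and passed it through XCON alone, so their XCKO values rest on counts near 0. Nrg1, a growth factor of the neuregulin family, had 15.9, 6.12 and 9.06 CPM in XCON and 2.02, 2.02 and 0.994 CPM in XCKO. For Malat1 they included Sspn at 0.19, Ankrd61 and Itgb2l at 0.20 and Styx at 0.22, beside a median of 0.75. For Gas5 they were Atad1, Tmco4, Tmub2, Mkrn1 and Dnajc4, all at 0.05, beside a median of 0.37.

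Summed markers of other liver cells are given beside these results. Over all genes tested, 4.05% were lower and 5.21% were higher. The summed macrophage markers were 1716, 2383 and 1230 CPM in XCON 1, 2 and 3 and 983, 429 and 1156 CPM in XCKO 1, 2 and 3, with no overlap and 2 of 10 tested lower. The summed stellate cell markers were 370, 648 and 746 CPM in XCON and 395, 160 and 259 CPM in XCKO, with overlap and 3 of 11 tested lower. The summed cholangiocyte markers were 604, 266 and 284 CPM in XCON and 100, 95.8 and 172 CPM in XCKO, with no overlap and 0 of 6 past.

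XCON 1, which had the most Snhg11, Neat1 and H19, also had the highest summed cholangiocyte markers through Spp1, the osteopontin gene, at 563 CPM. Krt7, Krt19 and Epcam were highest in XCON 2, at 1.61, 10.9 and 4.22 CPM, and Sox9 was highest in XCON 3, at 25.3 CPM. Endothelial markers overlapped, at 564 to 581 CPM in XCON and 431 to 893 CPM in XCKO. Erythroid markers summed to 407 CPM in XCKO 1 and to 943 in XCKO 3, the libraries with the lowest Malat1, and were at most 77.4 CPM in the other 4. Summed adipocyte markers were at 79.6 to 94.9 CPM in XCON and 124 to 341 CPM in XCKO, a gap made chiefly by Cfd, the complement factor adipsin, at 2.31, 5.46 and 0.98 CPM in XCON and 226, 54.6 and 177 CPM in XCKO. Of the other listed markers, Lep was at 0 throughout, and Adipoq and Retn had at most 3 reads and Plin1 at most 1 in any library. Cidec was at 49.0 to 57.5 CPM and Fabp4 at 16.0 to 61.0 CPM over all 6. The part of these cells in the levels of the members was not tested.

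**Figure D4:**
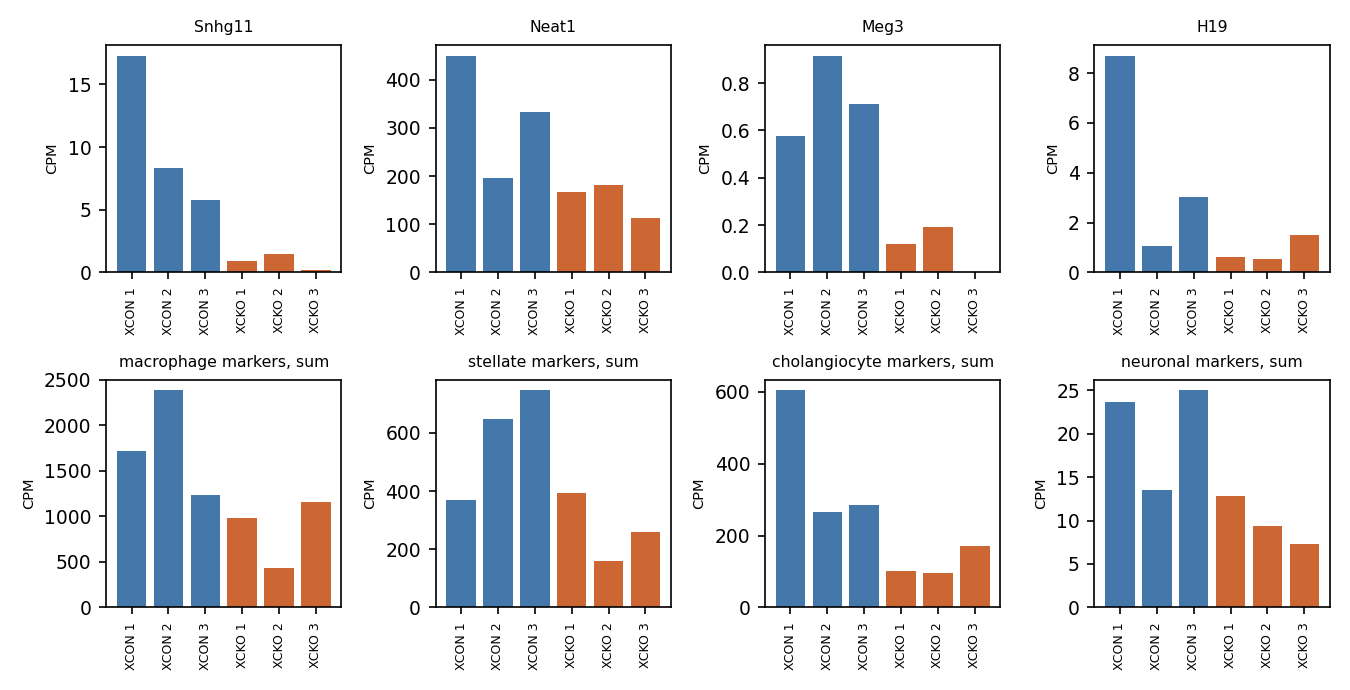
CPM by library (bars, linear axes from 0, XCON blue and XCKO orange) of Snhg11, Neat1, Meg3 and H19 in the upper row and of 4 summed marker lists in the lower row. XCON 1 has the tallest bar for Snhg11, Neat1, H19 and the cholangiocyte markers, at 17.3, 450, 8.7 and 604 CPM.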

How the data were processed

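The authors deposited 1 table with raw counts per Ensembl gene for 6 libraries, and the tests used these counts. The authors' deposited FPKM values were used for levels between genes. Group means deposited by the authors are a signal made of size-factor-scaled counts, and no source used here names the tool behind the authors' deposited log2 fold changes. The deposited p-values were not used, and the deposited gene lengths entered the length offset. Bowtie 0.12.2, mm8 and mm10 appear in the submitters' processing notes, with no role stated. The read counter and strand setting were not given in the sources used here. Per the labels' protocols, Trizol RNA went into NEBNext Ultra RNA libraries. Gene identifiers matched GENCODE M21 (GRCm38, mm10) in 99.8% of rows. Promoter sequences are from RefSeq on GRCm38.p6, found for 8 of 10 members.

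Genes passing filterByExpr (minimum count 10, 0.378 CPM) were scaled by TMM and tested with edgeR's quasi-likelihood test (edgeR 4.0.16, R 4.3.3) on group alone, with Benjamini-Hochberg adjustment over all 14873 genes and a threshold of 0.05. SEs are the absolute log2 fold change over the square root of F. The biological coefficient of variation was 25.8%. The smallest count told from 0 was taken as 3 reads, for counting error only. The members and lists were chosen with earlier results of these data known. Named were Xbp1, all members, the 5 genes most like Snhg11, Malat1 and Gas5 (leaving out Gm and Rik genes), for each list and the neighbours up to 4 genes with the smallest p among those past 0.05 or else the smallest p, and small RNA rows with reads. Some genes this names are not reported here. Islet genes of the lists and the lowest or highest libraries were singled out after their values were seen. Alternatives were median-of-ratios size factors, total-count scaling, no filter, a filter of 5 CPM in 3 libraries, a length offset, DESeq2 1.42.0, limma-voom (limma 3.58.1), the replicate block, each library left out and a distance of 200 kb. The fits were tested on simulated data.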

Additional observations from a re-analysis of the deposited data

How the results depend on the processing

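Of 237 alternative values, 175 stayed within the limits set for a change and 62 moved. A reversal could be counted for Snhg11 alone, the member called in the main fit, and its sign changed in 0 of 14 alternatives. The sign changes of Snhg1 and Snhg12, whose direction was not called, are given above and were not counted as reversals. The same replicate numbers in both groups did not pair the libraries (correlations of 0.055, 0.076 and -0.168), and with the replicate block 322 genes passed, with Snhg11 at -3.75. The count of 1378 genes became 2653 by DESeq2, 2160 with no filter and 2358 with total-count scaling (326 higher, 2032 lower), and 309 to 810 without 1 library. With the block, 0 other snoRNA hosts, 0 snoRNA-binding proteins, 0 neighbours and 1 imprinted gene passed. With 5 CPM in 3 libraries, 1 host, 1 imprinted gene, 1 decay factor and 4 neighbours passed. With the length offset, 1 host, 1 imprinted gene and 1 snoRNA-binding protein passed. DESeq2 passed 3 other long noncoding RNAs, 5 imprinted genes, 1 speckle protein, 1 decay factor and 6 neighbours. With median-of-ratios factors 1 other long noncoding RNA and 1 neighbour passed. With no filter 2 other long noncoding RNAs, 1 decay factor and 4 neighbours passed. Total-count scaling passed 1 host, 2 other long noncoding RNAs, 5 imprinted genes, 5 paraspeckle proteins, 3 speckle proteins, 1 decay factor and 4 neighbours. Within 200 kb, 5 neighbours passed. Without 1 library, 0 to 2 hosts, 0 to 1 other long noncoding RNAs, 1 to 2 imprinted genes, 0 to 2 snoRNA-binding proteins and 0 to 1 neighbours passed. The causes were not tested. Snhg12, Meg3 and H19 have no value under the 5 CPM filter. With 3 libraries per group and counts under 10 in XCKO, Meg3, Rian and Mirg are limited by depth.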
